A study of Mus musculus with 12 samples.

Results

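A group of 7 transcription factor genes that set or mark the identity of adrenocortical cells was examined in the adrenal cortex of mice fed a low-fat diet, a high-fat diet, or a high-fat diet with icosapent ethyl. They were listed by name, with no rule on their values, but earlier results of these data were known when they were chosen. The genes were *Nr5a1*, *Gata6*, *Cited2*, *Nr0b1*, *Nr2f1*, *Nr2f2*, and *Tcf21*. Each symbol matched 1 Ensembl identifier, so that 7 of the 49585 genes counted are described. RNA was sequenced from the adrenal cortex of 12 male C57BL/6J mice, which were 6 weeks old at the start and were fed for 20 weeks. The 4 mice on the low-fat diet (LFD; replicates 2, 5, 6, and 7; labelled Normal Diet) received 10% of their energy as fat. The 4 mice on the high-fat diet (HFD; replicates 1 to 4) received 60%. The 4 icosapent ethyl-treated mice (replicates 1 to 4; labelled Vasc) were on the HFD throughout and were given icosapent ethyl, a purified ethyl ester of the omega-3 fatty acid eicosapentaenoic acid, mixed in the diet in the last 10 weeks. The labels give the genotype Fads2-/- for all 12 mice, whereas the methods of the study describe wild-type animals, and *Fads2* was counted at 452 to 2181 CPM in every mouse. CPM are counts scaled to a common library size, adjusted here by the trimmed mean of M values (TMM). Library totals were 44091587 to 46874227 counts in LFD, 43819152 to 51563705 in HFD, and 34785979 to 67295963 in icosapent ethyl-treated mice. Markers of the cortex were abundant, with the 9 zona fasciculata genes summing to between 36340 and 94510 CPM, but markers of the chromaffin cells of the medulla were present in every library as well, at summed levels of 3103 to 22650 CPM. In such bulk tissue, fewer cells of a type and less RNA per cell cannot be told apart.

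*Nr5a1* encodes steroidogenic factor 1 (SF-1), the nuclear receptor that is needed for the adrenal primordium to form and that drives the genes of steroid synthesis. *Gata6* and *Cited2* act with it: GATA6 is a zinc finger factor of the cortex and its capsule, and CITED2 is a coactivator without a DNA-binding domain that raises *Nr5a1* dosage in the fetal adrenal. *Nr0b1* encodes DAX1, an orphan receptor that represses SF-1. *Nr2f1* and *Nr2f2* encode the orphan receptors COUP-TFI and COUP-TFII, which compete at nuclear receptor sites, and *Tcf21* encodes a basic helix-loop-helix factor of the capsule and stroma that opposes *Nr5a1* expression.

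The sequences in front of the annotated gene start are shown for the gene that passed the differential expression test (*Cited2*) and for the pair whose levels went opposite to *Nr5a1* from mouse to mouse (*Nr0b1* and *Tcf21*). They were taken from RefSeq (GRCm38.p6), are written 5′ to 3′ on the strand of the gene, and end at the base before the GENCODE start. They lie at chr10:17722978-17723217 (plus strand) for *Cited2*, at chrX:86191525-86191763 (plus strand) for *Nr0b1*, and at chr10:22820175-22820393 (minus strand) for *Tcf21*. Capitals mark matches to 5 short motifs searched on both strands, the nuclear receptor half-site AGGTCA, the GATA core GATAAG, the E-box CAGCTG, the TATA box TATAAA, and the cAMP response core TGACGT.
Cited2: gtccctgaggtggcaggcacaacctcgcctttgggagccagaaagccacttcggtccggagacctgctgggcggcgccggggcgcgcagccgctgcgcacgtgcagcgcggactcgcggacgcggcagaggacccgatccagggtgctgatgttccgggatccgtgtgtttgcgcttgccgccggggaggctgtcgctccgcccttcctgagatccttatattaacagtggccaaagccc
Nr0b1: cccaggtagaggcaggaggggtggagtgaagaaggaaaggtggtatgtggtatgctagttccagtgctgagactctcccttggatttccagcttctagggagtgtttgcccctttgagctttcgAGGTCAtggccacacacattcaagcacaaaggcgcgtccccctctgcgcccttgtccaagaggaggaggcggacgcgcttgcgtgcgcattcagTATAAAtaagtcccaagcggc
Tcf21: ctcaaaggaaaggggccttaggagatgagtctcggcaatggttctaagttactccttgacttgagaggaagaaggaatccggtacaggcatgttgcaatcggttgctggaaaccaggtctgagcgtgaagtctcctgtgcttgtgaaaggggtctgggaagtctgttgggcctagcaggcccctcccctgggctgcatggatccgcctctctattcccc
The *Nr0b1* window held the half-site once, with its first base at −115 from the GENCODE start, and the TATA box once, at −21. Windows of this length held the half-site in 13.5% and the TATA box in 12% of 32851 RefSeq promoters. None of the 5 motifs was in the *Cited2* or the *Tcf21* window, which says only that these letters are not in these stretches.

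To order the genes by level, CPM were divided by the exon length of each gene in kilobases. *Nr5a1* had the highest mean over the 12 mice, 198 CPM per kilobase, above 98.6% of 16232 genes. *Cited2* followed at 44.7, *Gata6* at 14.9, and *Nr2f2* at 8.66 CPM per kilobase. *Nr2f1*, *Tcf21*, and *Nr0b1* lay close together at 2.78, 2.76, and 2.503 CPM per kilobase, near the middle of all genes. *Nr5a1* was above *Cited2*, *Cited2* above *Gata6*, and *Nr2f2* above *Nr2f1* in 12 of 12 mice, and *Gata6* was above *Nr2f2* in 11 of 12. The last 3 genes did not separate, since *Nr2f1* was above *Tcf21* in 8 mice and *Tcf21* above *Nr0b1* in only 4. The genes also differed in how much they varied. The highest mouse had 6.69 times the level of the lowest for *Tcf21*, 3.96 times for *Nr5a1*, 3.75 times for *Cited2*, and 3.19 times for *Nr0b1*, against 1.89 times for *Gata6*, 1.82 times for *Nr2f1*, and 1.70 times for *Nr2f2*.

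**Figure D1:**
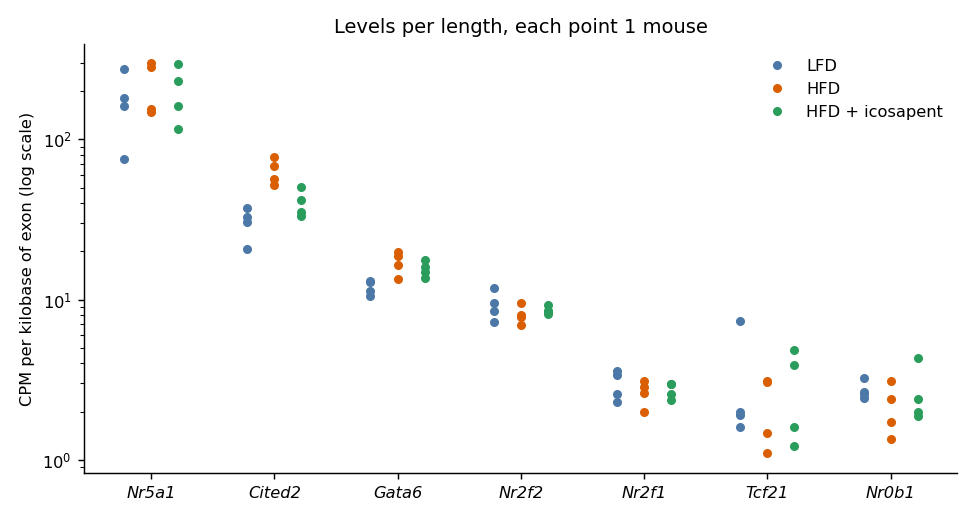
Level of the 7 genes in each of the 12 mice, as TMM-normalized CPM per kilobase of exon on a log axis, with 1 point per mouse and the groups side by side. *Nr5a1* averaged 198 CPM per kilobase, and *Nr2f1*, *Tcf21*, and *Nr0b1* averaged 2.503 to 2.78.

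Next, it was asked how the 7 genes differed between HFD and LFD mice. *Cited2* rose 2.09-fold and was the one gene of the 7 with an adjusted p below 0.05 (edgeR quasi-likelihood test, Benjamini-Hochberg adjustment over 15909 genes). *Gata6* was 1.43-fold higher with no overlap of the groups but missed the threshold, and *Nr5a1*, *Nr0b1*, *Nr2f1*, *Nr2f2*, and *Tcf21* overlapped between the groups. Over all genes tested, 1.45% (230 genes) passed the threshold, 155 of them higher (0.974%) and 75 lower (0.471%), so that 1 of 7 genes stood against that background. The 230 genes became 0 to 918 when 1 of the 8 mice was left out. An unadjusted p below 0.05 was found for 24.8% of all genes and for 2 of these 7. The groups did not overlap for 13.5% of all genes, 7.71% with HFD mice higher and 5.81% with HFD mice lower, and for 2 of these 7, both higher. Of the 7 genes, 3 had a positive and 4 had a negative log2 fold change, where 48.2% of all genes were positive, and the median was −0.18 beside −0.02 over all genes. The edgeR p-values weigh the difference between the groups against the spread between the mice of a group, which is estimated with information from all genes.

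*Cited2* (chr10:17723218-17725674, plus strand, GRCm38) was at 50.8, 74.5, 92.1, and 80.7 CPM in LFD replicates 2, 5, 6, and 7. It was at 127, 140, 191, and 167 CPM in HFD replicates 1 to 4. Every HFD mouse was above every LFD mouse. The means were 74.5 ± 17.4 CPM (SD, n = 4) and 156 ± 28.3 CPM (SD, n = 4), and the log2 fold change was 1.06 (SE 0.19, 95% interval 0.64 to 1.48, edgeR adjusted p = 0.04). The call depended on which mouse was left out, as did the calls over all genes. With edgeR, 0 genes were called without LFD replicate 5, 6, or 7 or without HFD replicate 2, 3, or 4. Without LFD replicate 2 there were 78, and without HFD replicate 1 there were 918. Without LFD replicate 2, 5, 6, or 7 the adjusted p by edgeR was 0.0526, 0.0741, 0.12, and 0.0824, without HFD replicate 2, 3, or 4 it was 0.113, 0.0892, and 0.122, and without HFD replicate 1 it was 0.0245, while the log2 fold change stayed between 0.92 and 1.19.

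The 12 chromaffin markers were all lower in HFD than in LFD mice, none of them past the threshold (median log2 fold change −1.28), and their summed level was 6431 to 22650 CPM (LFD) and 3103 to 10020 CPM (HFD). Over the 12 mice, *Cited2* correlated with the chromaffin sum at r = −0.62 as a description, and at −0.17 on deviations from the group means. It correlated with the zona fasciculata markers at 0.75 (0.65 on such deviations), with the capsule and fibroblast markers at −0.71 (−0.54), with the Schwann cell markers at −0.74 (−0.54), and with the share of counts in the 10 most abundant genes of a library at 0.74 (0.62). The part of these measures in the *Cited2* result was not tested.

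*Gata6* (chr18:11052064-11085635, plus strand) was at 68.6, 85.2, 73.3, and 83.4 CPM in LFD replicates 2, 5, 6, and 7. In HFD replicates 1 to 4 it was at 107, 122, 130, and 87.8 CPM. HFD replicate 4 was the lowest of its group and lay just above the highest LFD mouse. The means were 77.6 ± 7.96 and 112 ± 18.5 CPM (SD, n = 4 each), with a log2 fold change of 0.52 (SE 0.13, 95% interval 0.22 to 0.81, edgeR adjusted p = 0.0736). The adjusted p was 0.0169 with DESeq2, which called 11.5% of all genes, and 0.0478 when all 12 mice were fitted together with edgeR. Its correlation with the chromaffin sum over the 12 mice was r = −0.53, and −0.09 on deviations from the group means, and it was 0.62 and 0.24 with the zona fasciculata sum. Their part in the *Gata6* values was not tested.

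*Nr5a1* (chr2:38692656-38714542, minus strand) varied most in CPM. In LFD replicates 2, 5, 6, and 7 it was at 319, 681, 767, and 1161 CPM, and in HFD replicates 1 to 4 at 628, 655, 1261, and 1203 CPM. Both groups spanned nearly the same range, except that LFD replicate 2 was below every other mouse. The log2 fold change was 0.36 (SE 0.37, edgeR adjusted p = 0.593), and its 95% interval of −0.48 to 1.19 holds both a rise and a fall.

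*Nr0b1* (chrX:86191764-86195947, plus strand) rested on few reads, at most 310 counts per mouse. It was at 5.83, 4.37, 4.76, and 4.63 CPM in LFD replicates 2, 5, 6, and 7, and at 5.64, 4.35, 2.46, and 3.10 CPM in HFD replicates 1 to 4. HFD replicates 3 and 4, which had the most *Nr5a1* of their group, had less *Nr0b1* than any LFD mouse, whereas HFD replicates 1 and 2 lay within or just below the LFD range. The log2 fold change was −0.34 (SE 0.27, 95% interval −0.95 to 0.26, edgeR adjusted p = 0.459).

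The COUP-TF genes overlapped between the groups mouse by mouse. *Nr2f2* (chr7:70351944-70366735, minus strand) was at 102, 73.6, 62.2, and 82.1 CPM in LFD replicates 2, 5, 6, and 7 and at 82.3, 69.5, 59.9, and 66.8 CPM in HFD replicates 1 to 4. *Nr2f1* (chr13:78188973-78199757, minus strand) was at 17.4, 13.2, 11.7, and 18.3 CPM in the LFD replicates in this order and at 15.9, 13.4, 10.1, and 14.6 CPM in the HFD replicates. The log2 fold changes were −0.21 for *Nr2f2* (SE 0.16, 95% interval −0.57 to 0.16, edgeR adjusted p = 0.453) and −0.18 for *Nr2f1* (SE 0.19, 95% interval −0.62 to 0.26, edgeR adjusted p = 0.613).

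*Tcf21* (chr10:22817281-22820174, minus strand) was at 17.3 CPM in LFD replicate 2 and at 4.50, 3.78, and 4.68 CPM in LFD replicates 5, 6, and 7. It was at 7.19, 7.28, 2.58, and 3.44 CPM in HFD replicates 1 to 4. The LFD mean of 7.55 ± 6.48 CPM (SD, n = 4) was carried by 1 mouse, and 2 HFD mice were above and 2 below the other 3 LFD mice. The log2 fold change was −0.58 (SE 0.56, 95% interval −1.85 to 0.69, edgeR adjusted p = 0.557) and turned to 0.25 without LFD replicate 2. The 14 capsule and fibroblast markers, among which *Tcf21* is not counted, were lower in HFD mice in 13 of 14 cases and none past the threshold (median log2 fold change −0.62), and they summed to 443 to 804 CPM (LFD) and 302 to 452 CPM (HFD). Their part in the *Tcf21* values was not tested.

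**Figure D2:**
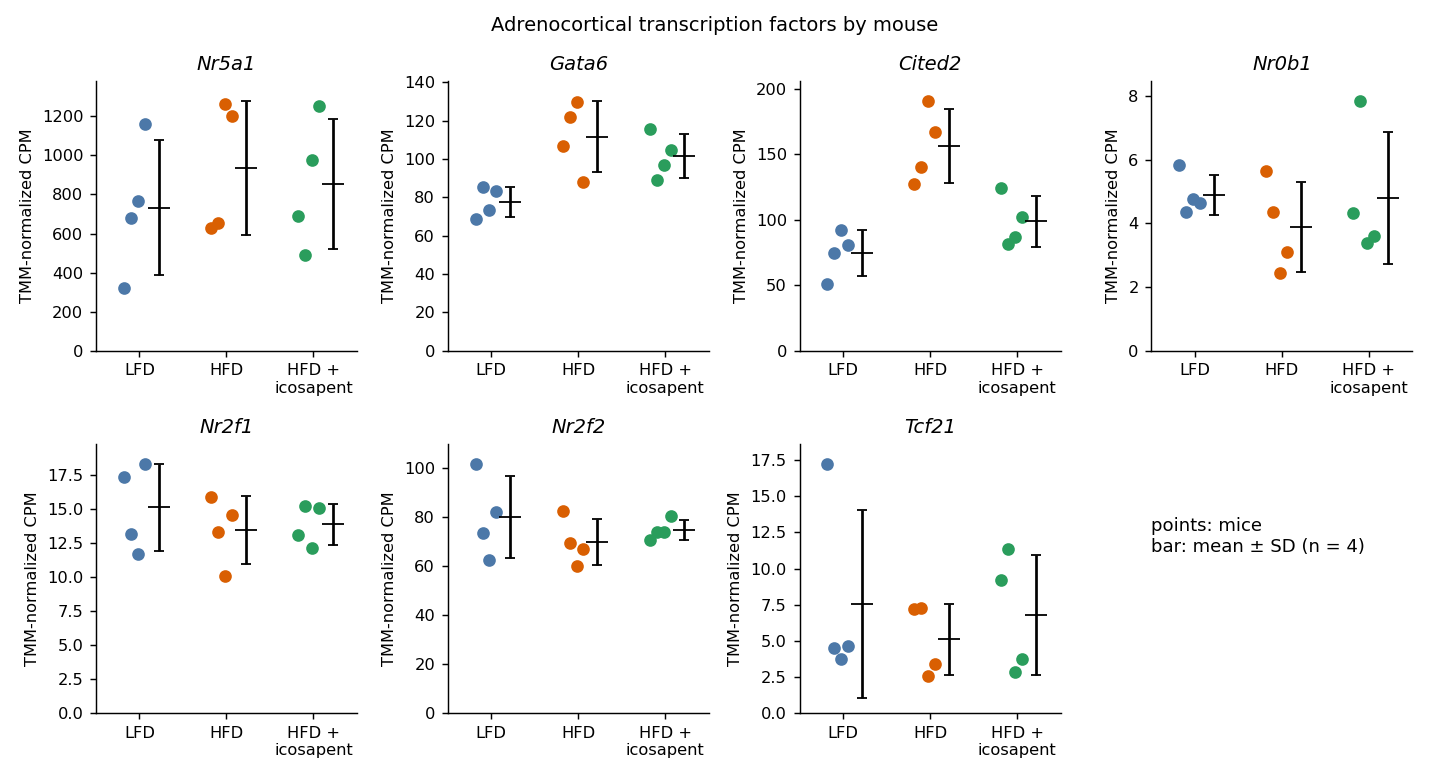
TMM-normalized CPM of each gene in each mouse of the LFD, HFD, and icosapent ethyl-treated groups, on linear axes from 0, with 1 point per mouse and bars for the mean ± SD (n = 4). *Cited2* was at 50.8 to 92.1 CPM in LFD, 127 to 191 CPM in HFD, and 81.1 to 125 CPM in icosapent ethyl-treated mice, and *Tcf21* reached 17.3 CPM in 1 LFD mouse.

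To compare the same genes with and without supplementation of the HFD, icosapent ethyl-treated mice were compared with HFD mice. *Cited2* was lower in each treated mouse than in each HFD mouse, at 0.63 times the HFD mean, but neither it nor another of the 7 genes passed the threshold. None of the 15913 genes tested did so with edgeR (0%), and the lowest adjusted p was 0.9997, whereas 221 genes (1.39%) had an unadjusted p below 0.05 and DESeq2 called 7 genes (0.0268%). The groups did not overlap for 1.14% of all genes (0.484% with treated mice higher, 0.66% with them lower) and for 1 of the 7, which was lower. Positive log2 fold changes were found for 4 of the 7 genes and for 51.1% of all genes.

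*Cited2* was at 125, 81.1, 86.8, and 102 CPM in icosapent ethyl replicates 1 to 4. The highest of these, replicate 1, lay just under the lowest HFD mouse at 127 CPM. The mean of 98.7 ± 19.4 CPM (SD, n = 4) was 36.8% below that of HFD mice, with a log2 fold change of −0.66 (SE 0.17, 95% interval −1.04 to −0.28, unadjusted p = 0.00343 and edgeR adjusted p = 1). The 12 chromaffin markers were all higher in treated than in HFD mice, at a median log2 fold change of 0.57, and summed to 5557 to 11010 CPM against 3103 to 10020 CPM. Their part in this difference was not tested.

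*Gata6* was at 116, 88.9, 96.7, and 105 CPM in icosapent ethyl replicates 1 to 4, within the HFD range of 87.8 to 130 CPM, and its log2 fold change was −0.14 (SE 0.13, 95% interval −0.44 to 0.17). *Nr5a1* was at 688, 491, 975, and 1254 CPM in these mice, a spread of the same kind as in both other groups, with a log2 fold change of −0.14 (SE 0.33, 95% interval −0.89 to 0.62). *Nr0b1* was at 4.33, 7.85, 3.39, and 3.60 CPM, and replicate 2, which had the least *Nr5a1* of the treated mice, had the most *Nr0b1* of all 12. Its log2 fold change was 0.30 (SE 0.35, 95% interval −0.49 to 1.09). *Nr2f2* was at 70.6, 73.8, 73.7, and 80.3 CPM and *Nr2f1* at 13.1, 15.2, 12.1, and 15.1 CPM. The COUP-TF genes overlapped between the groups, with log2 fold changes of 0.10 for *Nr2f2* (SE 0.10, 95% interval −0.13 to 0.33) and 0.05 for *Nr2f1* (SE 0.16, 95% interval −0.33 to 0.42). *Tcf21* was at 9.21 and 11.3 CPM in replicates 1 and 2 and at 2.87 and 3.75 CPM in replicates 3 and 4, and its log2 fold change was 0.40 (SE 0.51, 95% interval −0.75 to 1.55). It was higher in the treated mouse than in the HFD mouse of the same number in 4 of 4 pairs, and with the number as a block the log2 fold change was 0.33 (SE 0.15, edgeR adjusted p = 0.889). The labels do not say that equal numbers are pairs, and the share of all genes that were higher in 4 of 4 was not counted. Without the block, the adjusted p by edgeR was 1 for these 6 genes.

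Compared with LFD mice, the icosapent ethyl-treated mice had a higher mean of *Gata6*, 101 ± 11.4 CPM (SD, n = 4), with no overlap, since the lowest treated mouse was at 88.9 CPM and the highest LFD mouse at 85.2 CPM. The log2 fold change was 0.39 (SE 0.11, 95% interval 0.14 to 0.63, unadjusted p = 0.00573 and edgeR adjusted p = 0.237). *Cited2* overlapped, with a log2 fold change of 0.41 (SE 0.19, 95% interval −0.03 to 0.84, edgeR adjusted p = 0.38). The log2 fold changes of the other 5 genes were between −0.16 (*Tcf21*) and 0.22 (*Nr5a1*). None of 15935 genes passed the threshold with edgeR (0%), 2225 (14%) had an unadjusted p below 0.05, and DESeq2 called 413 (2.58%), none of them among the 7. The groups did not overlap for 7.73% of all genes (4.04% with treated mice higher, 3.69% with them lower) and for 1 of the 7. A positive log2 fold change was found for 3 of the 7 and for 49.4% of all genes. The comparisons share groups of mice, so that their values are given side by side and not as independent results.

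**Figure D3:**
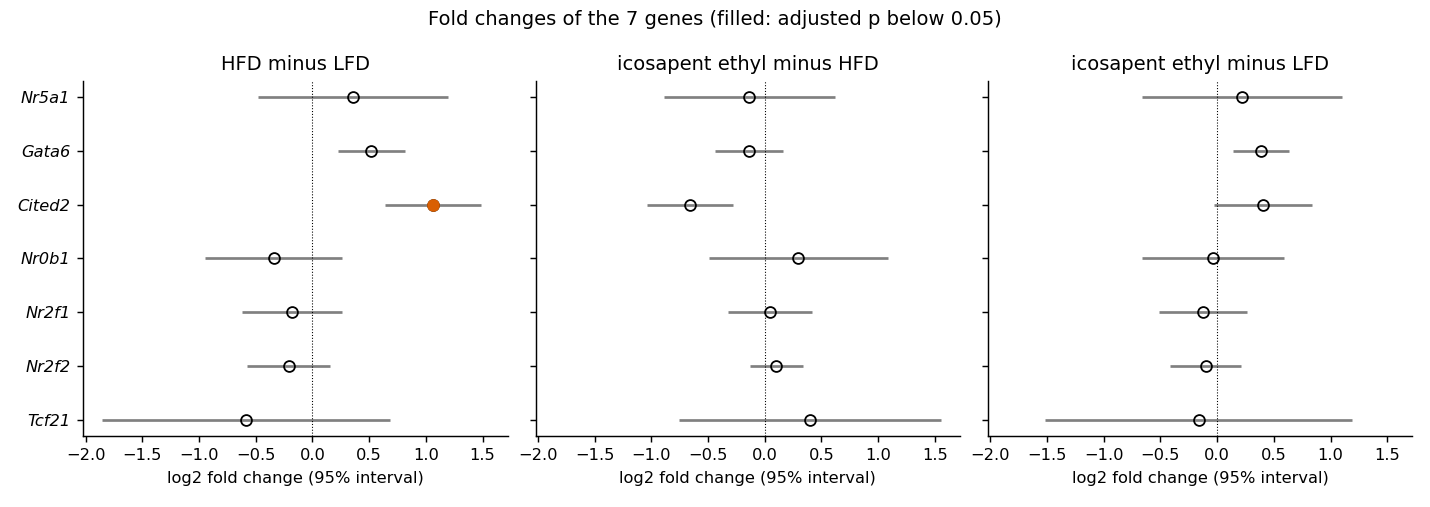
Log2 fold change of each gene (points) with its 95% interval (lines) by edgeR in the comparisons of HFD with LFD, icosapent ethyl-treated with HFD, and icosapent ethyl-treated with LFD mice, with the point filled where the adjusted p was below 0.05. *Cited2* at 1.06 in HFD against LFD mice is the filled point, and the interval of *Tcf21* is the widest in each of the 3 comparisons.

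Because *Nr5a1*, *Nr0b1*, and *Tcf21* varied widely between the mice of a group, the relations of the 7 genes over the 12 mice were computed as correlations of log2 CPM. There were 21 pairs, p-values came from 100000 permutations of the 12 mice without regard to group, and adjusted values are over the 21. Differences between the groups can therefore enter these p-values. Correlations on deviations from the group means (within groups) are given beside them without a p-value. After adjustment, 6 pairs passed 0.05, 3 of them negative. How often pairs among all genes reach such correlations in these libraries was not examined. The count therefore does not show that these relations are particular to the 7 genes. *Nr5a1* was opposite to *Tcf21* (Pearson r = −0.89, permutation p = 0.00011, adjusted 0.0023, Spearman rho = −0.86, permutation p = 0.00067, adjusted 0.011). The 3 mice with the most *Tcf21* were LFD replicate 2 and icosapent ethyl replicates 1 and 2, and 2 of these, LFD replicate 2 and icosapent ethyl replicate 2, had the least *Nr5a1* of all 12. Without the 2 mice farthest from the median of *Nr5a1*, r was −0.79, and on deviations from the group means it was −0.90.

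*Nr5a1* was also opposite to *Nr0b1*, which encodes its repressor (r = −0.79, permutation p = 0.0026, adjusted 0.014, rho = −0.83, permutation p = 0.0015, adjusted 0.011), with r = −0.79 without the 2 farthest mice and −0.77 within groups. *Nr0b1* and *Tcf21* went together (r = 0.80, permutation p = 0.0014, adjusted 0.0096, rho = 0.79, permutation p = 0.0032, adjusted 0.017), at 0.74 without the 2 farthest mice and 0.80 within groups. *Nr2f1* and *Nr2f2* went together as well (r = 0.82, permutation p = 0.0011, adjusted 0.0096, rho = 0.84, permutation p = 0.0012, adjusted 0.011), at 0.80 without the 2 farthest mice and 0.81 within groups. These 4 relations held in their sign with library totals in place of TMM, at −0.92, −0.81, 0.85, and 0.89 in the order given.

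The other 2 relations were less stable. *Gata6* and *Cited2* correlated at r = 0.77 (permutation p = 0.0035, adjusted 0.015, rho = 0.76, permutation p = 0.0061, adjusted 0.026), but at 0.53 without the 2 farthest mice and 0.46 within groups. *Cited2* and *Nr2f2* were opposite by Pearson's r (−0.71, permutation p = 0.01, adjusted 0.036) and not past the threshold by rho (−0.61, permutation p = 0.039, adjusted 0.12). That relation fell to −0.26 without the 2 farthest mice, on which it rests, and was −0.79 within groups.

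Other measures moved with the *Nr5a1* axis, and their part in these relations was not tested. As descriptions over the 12 mice, *Nr5a1* correlated with the summed zona fasciculata markers at r = 0.86, with the capsule and fibroblast markers at −0.74, and with the share of counts in the 10 most abundant genes of a library at 0.73. All zona fasciculata markers except *Abcb1b* are also listed below as steroidogenic target genes of SF-1. Their sum is therefore not a measure of cell content apart from the targets. That share was 8.21% to 11.9%. *Tcf21* correlated with the capsule and fibroblast markers at 0.75 (0.91 within groups) and with the zona fasciculata markers at −0.69 (−0.78). For *Nr0b1* and the zona fasciculata markers the value was −0.82 (−0.86). Other marker sums moved with these genes too. *Tcf21* correlated with the adipocyte markers at 0.53 (0.74) and with the mesothelial markers at 0.44 (0.77). *Nr5a1* did so with the adipocyte markers at −0.52 (−0.80), the Schwann cell markers at −0.74 (−0.75), and the endothelial markers at 0.70 (0.76). The share of mitochondrially encoded counts, 1.84% to 3.23%, correlated with *Nr0b1* at −0.77, *Nr2f1* at −0.75, *Nr2f2* at −0.74, and *Tcf21* at −0.70. With *Nr5a1* it correlated at 0.61, with *Cited2* at 0.58, and with *Gata6* at 0.32. The share of counts in the 10 most abundant genes correlated with *Nr0b1* at −0.78 and with *Tcf21* at −0.56. Library totals correlated with *Nr5a1* at 0.45, with *Nr0b1* at −0.49, and with *Tcf21* at −0.43.

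**Figure D4:**
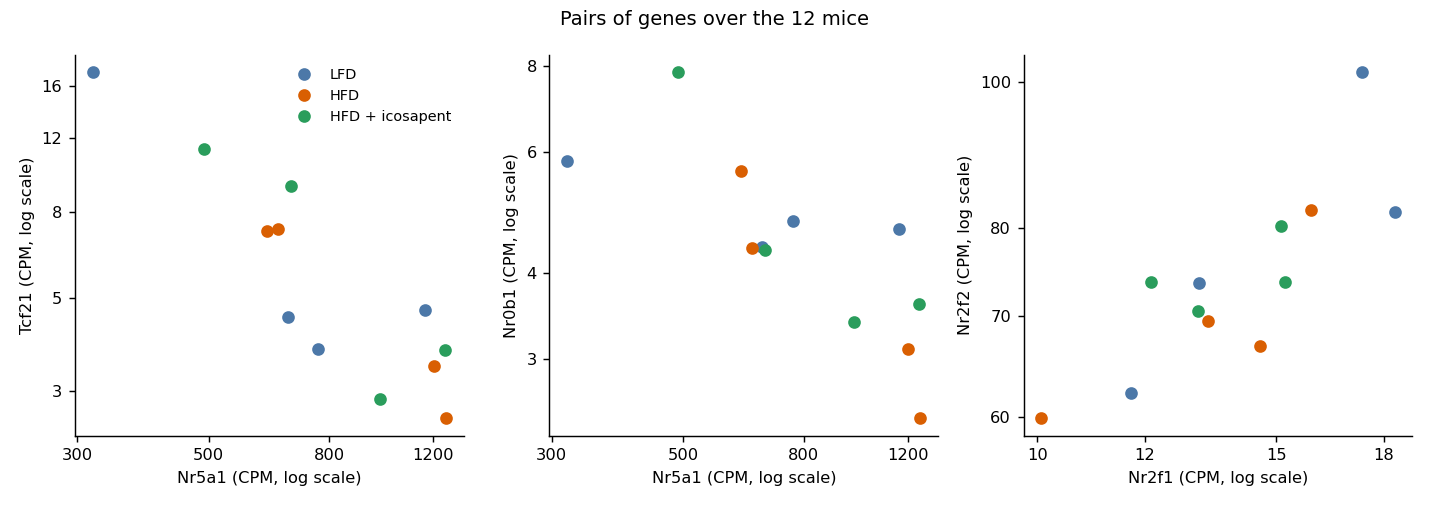
Levels in each of the 12 mice, in CPM on log axes, for *Tcf21* against *Nr5a1*, *Nr0b1* against *Nr5a1*, and *Nr2f2* against *Nr2f1*, with 1 point per mouse coloured by group. The first pair falls from upper left to lower right (r = −0.89), as does the second (r = −0.79), whereas the third rises (r = 0.82).

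**Figure D5:**
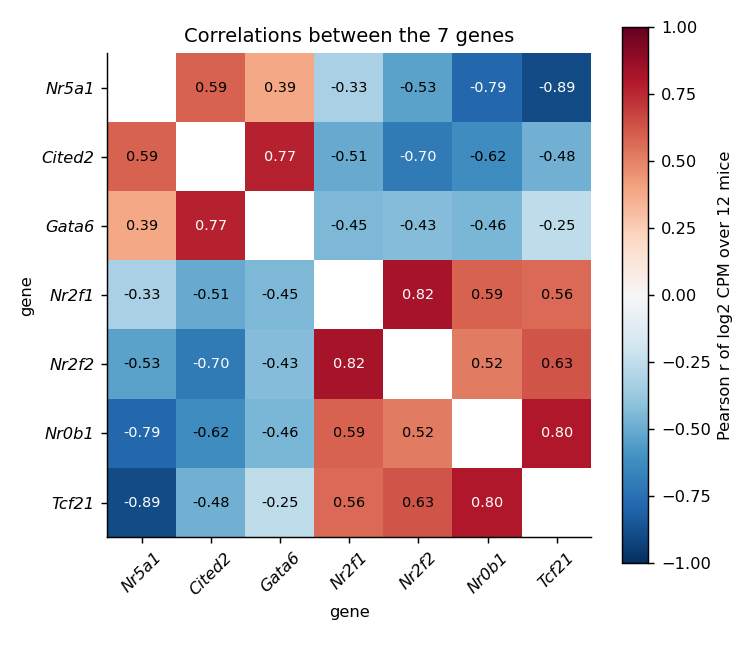
Pearson correlation of log2 CPM over the 12 mice for each pair of the 7 genes, as coloured cells from −1 to 1 with the value printed. *Nr2f1*, *Nr2f2*, *Nr0b1*, and *Tcf21* correlated positively with each other, and *Nr5a1*, *Cited2*, and *Gata6* did so among themselves, with *Gata6* and *Nr5a1* at 0.39. *Nr5a1* did not pass the threshold with *Gata6* (adjusted permutation p = 0.23) or *Cited2* (adjusted permutation p = 0.093). Without the 2 mice farthest from the median of *Nr5a1*, these correlations were −0.18 (*Gata6*) and 0.13 (*Cited2*).

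The ratio of 2 genes in 1 library does not depend on scaling, so the balance of the opposing factors was compared between the groups in this way. *Nr0b1* counts were 1.83%, 0.642%, 0.621%, and 0.399% of *Nr5a1* counts in LFD replicates 2, 5, 6, and 7, then 0.898%, 0.665%, 0.195%, and 0.257% in HFD replicates 1 to 4, and 0.628%, 1.6%, 0.348%, and 0.287% in icosapent ethyl replicates 1 to 4. All 3 groups overlapped. The mean log2 ratio was 0.82 lower in HFD than in LFD mice (exact two-sided permutation p = 0.286, adjusted 0.857 over 9 ratio tests, n = 4 and 4). It differed by 0.44 between treated and HFD mice (exact permutation p = 0.571) and by −0.38 between treated and LFD mice (exact permutation p = 0.543), each with an adjusted p of 0.857. *Tcf21* counts ranged from 0.204% (HFD replicate 3) to 5.42% (LFD replicate 2) of *Nr5a1* counts, and the log2 ratio differed by −0.82 between HFD and LFD mice (exact permutation p = 0.543, adjusted 0.857), by 0.47 between treated and HFD mice (exact permutation p = 0.514, adjusted 0.857), and by −0.35 between treated and LFD mice (exact permutation p = 0.771, adjusted 0.857). With treated and HFD mice paired by their replicate number, the *Tcf21* difference of 0.47 had an exact permutation p of 0.125, the smallest that 4 pairs allow. *Nr2f2* stayed within a narrow multiple of *Nr2f1*, at 448% to 608% of its counts in every mouse, with differences in log2 ratio of −0.02 (HFD minus LFD), 0.05 (icosapent ethyl minus HFD), and 0.03 (icosapent ethyl minus LFD), each below the SD between mice of 0.13 to 0.17. The smallest p that 4 against 4 mice allow is 0.0286.

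Of the 7 genes, 4 overlap a gene on the other strand in GRCm38, as 34.5% of 21734 protein-coding genes do. Counting used the strand of the reads, so that these counts are separate. *A830082K12Rik*, on the other strand of *Nr2f1*, had 55.7% to 92.4% as many counts as *Nr2f1* itself. *1010001N08Rik*, beside *Gata6*, had 5.72% to 11.4% of its counts, and *B130024G19Rik* (*Nr2f2*) and *Nr5a1os* (*Nr5a1*) had 0.902% or less. None of the 4 passed the threshold in a comparison. The mean of *A830082K12Rik* was 10.7 CPM with LFD and 9.16 CPM with HFD feeding (log2 fold change −0.23, SE 0.14, edgeR adjusted p = 0.332), and that of *1010001N08Rik* was 7.49 and 8.97 CPM (0.26, SE 0.16, edgeR adjusted p = 0.335).

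Among 10895 named genes with a mean of at least 5 CPM, those whose log2 CPM were most like each of the 7 over the 12 mice were named, as a description. They were *Vrk1* (r = 0.98) and *Ddx21* (0.98) for *Nr5a1*, *Sbno2* (0.93) and *Epha2* (0.93) for *Gata6*, and *Hps1* (0.97) and *Vcp* (0.95) for *Cited2*. *Hmox2* (0.94) and *Dhx40* (0.93) were most like *Nr0b1*, and *Naa80* (0.97) and *Ppp1r35* (0.97) most like *Tcf21*. The growth factor gene *Fgf2* was most like both *Nr2f1* (0.83) and *Nr2f2* (0.87), and the COUP-TF genes took the next place in each other's list (0.82). On deviations from the group means, these correlations were between 0.81 (*Nr2f1* with *Nr2f2*) and 0.99 (*Nr5a1* with *Ddx21*).

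The genes around the 7 factors were described by lists, in HFD against LFD mice first. No gene of the 5 pathway lists passed the threshold with edgeR. DESeq2, which called 11.5% of all genes, called 3 of the steroidogenic target genes, 4 SF-1 coregulators, 3 paralogs, 2 other adrenogonadal transcription factors, and 2 hedgehog and WNT genes. Without HFD replicate 1, edgeR called 918 of all genes, and 3, 1, 2, 1, and 0 genes of these lists in the same order. With any other mouse left out, it called no gene of the lists. All 14 of 14 steroidogenic target genes of SF-1 had a positive log2 fold change, with a median of 0.45 beside −0.02 over all genes. This list shares all zona fasciculata markers except *Abcb1b*, so that the values of both lists are not separate results. *Star*, whose protein carries cholesterol into mitochondria, averaged 13180 CPM with LFD and 25010 CPM with HFD feeding (log2 fold change 0.92, SE 0.37, edgeR adjusted p = 0.173). *Cyp21a1*, the steroid 21-hydroxylase, averaged 12810 and 16530 CPM (0.36, SE 0.15), and *Hsd3b1* 14490 and 17410 CPM (0.26, SE 0.12). In icosapent ethyl-treated mice, 13 of these 14 genes were lower than in HFD mice (median −0.12) and 13 of 14 higher than in LFD mice (median 0.31), none past the threshold.

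Of the 18 SF-1 coregulators, 16 were higher and 2 lower in HFD mice, with a median of 0.18. Beta-catenin (*Ctnnb1*) averaged 1033 CPM with LFD and 1215 CPM with HFD feeding (log2 fold change 0.23, SE 0.10), and *Edf1* 165 and 152 CPM (−0.13, SE 0.11). In treated mice, 7 coregulators were higher and 11 lower than in HFD mice (median −0.03).

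Of 13 paralogs of the 7 genes, 11 could be tested, 6 of them higher and 5 lower in HFD mice (median 0.06). *Cited1*, a paralog of *Cited2*, went the other way from it, with means of 70.1 CPM (LFD) and 25.4 CPM (HFD) and no overlap (log2 fold change −1.48, SE 0.31, edgeR adjusted p = 0.0551, DESeq2 adjusted p = 0.000262). *Cited4*, named after its values were seen, averaged 3.87 and 11.01 CPM (1.504, SE 0.40, edgeR adjusted p = 0.0809, DESeq2 adjusted p = 0.0044). *Nr0b2*, the paralog of *Nr0b1* that encodes the repressor SHP, averaged 20.1 and 34.9 CPM (0.78, SE 0.26, edgeR adjusted p = 0.12, DESeq2 adjusted p = 0.0308), and *Nr2f6*, the paralog of the COUP-TF genes, 63.8 and 71.7 CPM (0.16, SE 0.07). In treated against HFD mice, 8 paralogs were higher and 3 lower, with a median of 0.30, and *Cited1* was at 45.7 CPM (log2 fold change 0.85, SE 0.65). The chromaffin markers had the same order of groups as *Cited1*, with median sums of 16070 CPM (LFD), 5909 CPM (HFD), and 9990 CPM (treated). Their part in the paralog values was not tested.

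Of 10 other adrenogonadal transcription factors, 7 could be tested, 5 higher and 2 lower in HFD mice (median 0.06). *Hoxb9*, a homeobox gene, was above *Nr5a1* per length, at 244 CPM per kilobase, and averaged 629.7 CPM with LFD and 655 CPM with HFD feeding. *Pknox1*, a homeobox gene as well, averaged 22.5 and 25.4 CPM (log2 fold change 0.17, SE 0.12). In treated against HFD mice, 3 of the 7 were higher and 4 lower. The 16 hedgehog and WNT genes of the capsule and outer cortex had 5 higher and 11 lower members in HFD mice, with a median of −0.31. *Shh*, the signal that outer cortex cells send to the capsule, averaged 132 CPM with LFD and 65.8 CPM with HFD feeding (−1.01, SE 0.44), *Wnt4* 177 and 154 CPM (−0.20, SE 0.31), and the hedgehog signal transducer *Smo* 111 and 116 CPM (0.05, SE 0.10). In treated mice, 9 were higher and 7 lower than in HFD mice (median 0.04).

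Of the 11 lists of cell type markers, only the macrophage list had genes past the threshold, *Cd68*, *C1qa*, and *C1qc*, which were lower in HFD than in LFD mice. Of the 10 macrophage markers, 7 were lower and 3 higher in HFD mice, and 1.45% of all genes passed the threshold. The median log2 fold changes in HFD against LFD mice were 0.63 for zona fasciculata, 0.03 for zona glomerulosa, −0.62 for capsule and fibroblast, 0 for endothelial, 0.18 for lymphatic endothelial, −0.30 for pericyte and smooth muscle, −0.41 for macrophage, −1.28 for chromaffin, 0.31 for adipocyte, −0.31 for mesothelial, and −1.37 for Schwann cell markers. No marker was at 0 in all 12 mice.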

How the data were processed

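RNA of the adrenal cortex was sequenced from 12 mice, 4 per group, with 1 library each, and groups and replicate numbers were taken from the labels. The authors prepared strand-specific libraries, trimmed adaptors with cutadapt, aligned the reads with STAR to GRCm38, counted them per gene of GENCODE M12 with HTSeq 0.6.1p1 in reverse-strand mode, and deposited raw counts per gene, which were used as deposited. Symbols, positions, and exon lengths came from GENCODE M21 of the same build, which named 49326 of 49585 genes. Of the 66 pairs of libraries, none held the same counts (the chi-square divided by its degrees of freedom was 26.5 or more). The counts of a gene limit its precision, and errors are between mice.

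Tests used edgeR 4.0.16 in R 4.3.3 (TMM scaling, low counts removed by filterByExpr with 10 as the minimum, quasi-likelihood fit with the robust option, p-values adjusted by Benjamini and Hochberg, called below 0.05) on the 8 mice of the 2 groups compared, without covariates. The SE is the log2 fold change divided by the root of F. CPM per mouse used TMM factors of all 12 mice (0.883 to 1.14), and correlations used log2 CPM with a prior count of 2. Ratios were tested by exact permutation, and DESeq2 1.42.0 was an alternative. In simulated data with 200 of 15909 genes changed 2-fold, 50% were recovered for HFD against LFD mice, with 8 false calls. Each gene was drawn independently, so variation shared by the genes of a mouse was left out. Recovery in the real data may therefore differ.

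The 7 genes, the 5 pathway and 11 marker lists, and the tests were chosen with earlier results of these data known. Named besides the 7 were the genes of a list past the threshold (for HFD against LFD or treated against HFD mice), the 3 of each pathway list with the highest mean CPM per kilobase, and the 2 genes most like each of the 7. Some genes under this rule are not reported here. For the marker lists, the 3 most abundant genes were left out of the text for brevity. Correlations with library totals and within groups were added after the data were seen. Treated and HFD mice share the numbers 1 to 4, and mice with the same number deviated together from the means of their groups, with r of 0.24, 0.116, 0.34, and 0.632 (all above 0.1). Some mice with different numbers did so as well. HFD replicate 1 with icosapent ethyl replicate 2 reached 0.598, HFD replicate 2 with icosapent ethyl replicate 1 reached 0.443, and HFD replicate 3 with icosapent ethyl replicate 4 reached 0.368. All other pairs with different numbers were negative, from −0.007 to −0.634. Whether equal numbers denote pairs is not stated. A block on the number was fitted as an alternative. Other alternatives were all 12 mice in 1 fit, library totals as the scaling, no filter, at least 10 counts required in each mouse, calls below 0.1, and leaving out each mouse. The promoter table held no entry for *Nr5a1* and *Gata6*.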

Additional observations from a re-analysis of the deposited data

Results flagged for a closer look

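The level of *Tcf21* in LFD replicate 2, 17.25 CPM, stood apart from the other 3 LFD mice, of which the nearest was at 4.68 CPM. The gap took 0.934 of the range of the group, above Dixon's 95% critical value for 4 samples. It was the single such value in 30 groups of 4 values examined, and chance alone flags about 1 in 20 groups. The same mouse had the lowest *Nr5a1* (319 CPM) and the lowest *Cited2* (50.8 CPM) of all 12 mice.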

How the results depend on the processing

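The number of genes called in HFD against LFD mice changed from 230 to 1933 with DESeq2, 84 with library totals in place of TMM, 556 with all 12 mice in 1 fit, and 1396 at a threshold of 0.1, and it ranged from 0 to 918 when 1 mouse was left out. Of the 7 genes, 2 (*Cited2* and *Gata6*) were called with DESeq2, with all 12 mice in 1 fit, and at a threshold of 0.1, and between 0 and 1 when 1 mouse was left out. Treated against HFD mice had 7 genes called with DESeq2 and 0 with each mouse left out. Treated against LFD mice had 413 with DESeq2, 2 with all 12 mice in 1 fit, and 0 to 1 with a mouse left out. With the replicate number as a block, the log2 fold change of *Cited2* in treated against HFD mice was −0.67 (adjusted p = 0.889 by edgeR), and the replicate block changed no call of the 7 genes.

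Of 301 alternative values for the log2 fold changes of the 7 genes, 275 kept both direction and side of the threshold, 7 lost and 2 gained the threshold, and 17 reversed, all of them by leaving out 1 mouse. With 1 mouse left out, the log2 fold change of *Tcf21* ranged from −0.80 to 0.25 (HFD against LFD) and from −0.53 to 0.65 (treated against LFD). In treated against HFD mice, that of *Nr5a1* ranged from −0.384 to 0.054, that of *Nr0b1* from −0.046 to 0.53, and that of *Nr2f1* from −0.071 to 0.135. In treated against LFD mice, that of *Nr5a1* ranged from −0.028 to 0.54, that of *Nr0b1* from −0.38 to 0.10, and that of *Nr2f2* from −0.201 to 0.039. The difference in log2 ratio with 1 mouse left out ranged, for *Nr0b1* to *Nr5a1*, from −1.19 to −0.38 (HFD minus LFD), −0.066 to 0.806 (treated minus HFD), and −0.886 to 0.055 (treated minus LFD). For *Nr2f2* to *Nr2f1* it ranged from −0.10 to 0.04, −0.012 to 0.113, and −0.051 to 0.079, and for *Tcf21* to *Nr5a1* from −1.211 to 0.038, −0.092 to 0.899, and −0.907 to 0.505, in the same order. The cause of these shifts was not tested. With 4 mice per group, intervals stayed wide for *Nr5a1* and *Tcf21*, and *Nr0b1* and *Tcf21* rested on the fewest counts.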
